A study of Arabidopsis thaliana with 6 samples.

Results

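Superoxide dismutases turn superoxide into hydrogen peroxide and oxygen, and plants run several forms of the enzyme that use different metals. The 8 loci described here are the copper/zinc dismutases CSD1 (cytosol), CSD2 (plastid) and CSD3 (peroxisome), the copper chaperone CCS that loads copper into them, the iron dismutases FSD1, FSD2 and FSD3, and the manganese dismutase MSD1 of mitochondria. They were picked as a family by locus identifier from 33027 loci in the files, and all 8 were found and had enough counts to be tested. Iron dismutases need iron, so a plant short of iron and a plant short of copper are placed differently for this family. In Arabidopsis leaves and seedlings, low copper is known to activate the transcription factor SPL7, which raises FSD1 and the microRNA miR398, and miR398 in turn lowers CSD1, CSD2 and CCS.

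RNA came from whole anthers of wild-type Col-0 Arabidopsis thaliana. The labels give the stage as PMC-TC, an abbreviation not interpreted here. All plants first grew with iron, on plates (10 days) and then hydroponically (18 days). For a further 18 days the medium then held NaFe-EDTA (control, 3 libraries) or had none added (Fe-deficient, 3 libraries). The labels state the iron supply of the controls as 50 mM, a unit that could not be checked, and name no difference in copper supply. No label states whether libraries derive from different plants, so the p-values measure only the spread between libraries, which may be technical. Libraries held between 16818176 and 22710901 estimated counts. A smaller amount of a transcript in such bulk tissue can reflect fewer cells of a type or less RNA per cell, and these cannot be told apart.

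The libraries differed in their cell-type markers. Of 21 late pollen markers, 21 had a positive log2 fold change (median 1.51). Their summed level was between 1240 and 4590 CPM (library-size-scaled counts, TMM factors) in controls and between 3971 and 12400 CPM in Fe-deficient anthers. Of 19 tested tapetum markers, 19 had a negative log2 fold change (median -1.27). Their sums ran from 6609 to 11020 CPM in controls and from 3224 to 4412 CPM in Fe-deficient anthers, so RNA of the tapetum, the nursing layer of the anther, was present in every library. Of 20 green tissue markers, 16 had a negative log2 fold change. Their sums were 5605, 5433 and 9856 CPM in controls 1, 2 and 3, against 4794, 4238 and 7051 CPM in Fe-deficient 1, 2 and 3. Sums of 6 carpel and petal markers were 92.7 CPM in control 3 and 108 CPM in Fe-deficient 3, and 18.4 to 35.9 CPM in the other libraries. The high sums came mostly from AP1, at 84.8 CPM in control 3 and 98.8 CPM in Fe-deficient 3. STK, SHP1 and SHP2 were instead highest in control 2 (3.65, 6.26 and 2.61 CPM). CRC was highest in Fe-deficient 3 (5.95 CPM), and RBE reached at most 0.163 CPM. No marker on these lists was at 0 in all libraries. The part of these differences in the results below was not tested.

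The sequences through which miR398 is known to pair with its targets are shown first, since 3 members carry such a site and 5 do not have a comparable one. The mature miR398 strands, from 5′ to 3′ with the seed (bases 2 to 8) in capitals, were read from the TAIR10.1 genome at the positions annotated by RefSeq. They lie at chr2:1041012-1041032 (a), chr5:4691107-4691127 (b) and chr5:4694778-4694798 (c), all on the plus strand. The seed is the same in the 3 strands and b and c are identical.
miR398a-3p: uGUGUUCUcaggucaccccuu
miR398b-3p: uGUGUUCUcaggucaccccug
miR398c-3p: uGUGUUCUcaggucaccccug

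The best duplex of miR398b with each of 27444 genes with RefSeq coding transcripts was scored by a penalty (1 per mismatch, 0.5 per G:U pair, 2 per bulged base), and a low penalty means close pairing. CSD1 had a penalty of 4, reached by 10 genes (0.0364%), and CSD2 one of 4.5, reached by 37 genes (0.135%). CCS had a penalty of 5.5, reached by 488 genes (1.78%). COX5B1, a cytochrome oxidase subunit and known miR398 target outside the family, had a penalty of 4. The best matches in CSD3, FSD1, FSD2, FSD3 and MSD1 had penalties of 6.5 to 8, which between 14.9% and 83.3% of genes reach. The CSD1 match spans an exon junction in the 5′ UTR, between chr1:2827177-2827685 on the plus strand. The CSD2 match is in the coding sequence at chr2:12015572-12015591 on the plus strand, and the CCS match is in the coding sequence at chr1:4267521-4267541 on the minus strand. The COX5B1 match is in the 5′ UTR at chr3:5299204-5299225 on the plus strand. In the target RNAs below, capitals mark bases in a Watson-Crick pair with miR398b, and a match describes letters only.
CSD1: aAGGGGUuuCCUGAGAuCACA
CSD2: ugcGGGUGACCUGgGAAACA
CCS: auuGGGaGACCUGgGAACACu
COX5B1: aAGGuGUGACCUGAGAAuCACA

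FSD1 was lower in the Fe-deficient libraries than in every control, and CSD1 was higher than in every control in CPM, while in TPM its groups overlapped. No member passed the threshold of edgeR's quasi-likelihood test across all genes. At a Benjamini-Hochberg adjusted p under 0.05, 0 of 8 members were called higher and 0 lower, as were 0 (0%) and 0 (0%) of 21267 genes tested. At an unadjusted p under 0.05, FSD1 alone among the members was lower, where 6.09% of genes tested were, and 0 members were higher, where 7.34% were. DESeq2 called 0 of 8 members, where it called 2.05% of genes tested higher and 1.38% lower. Limma-voom called 0 of 8 members and 0% of genes in either direction. Of the members, CSD1 and MSD1 had higher CPM in every Fe-deficient library than in any control, as 10.0% of genes tested did, an order that neither keeps on TPM. FSD1 had lower CPM in every one, as 10.3% did. The median log2 fold change of the 8 members was 0.07, and 0.00 over all genes tested. The edgeR estimates were largest for FSD1 (-4.34, SE 1.58), CSD1 (0.94, SE 0.45) and CCS (0.71, SE 0.36).

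**Figure D1:**
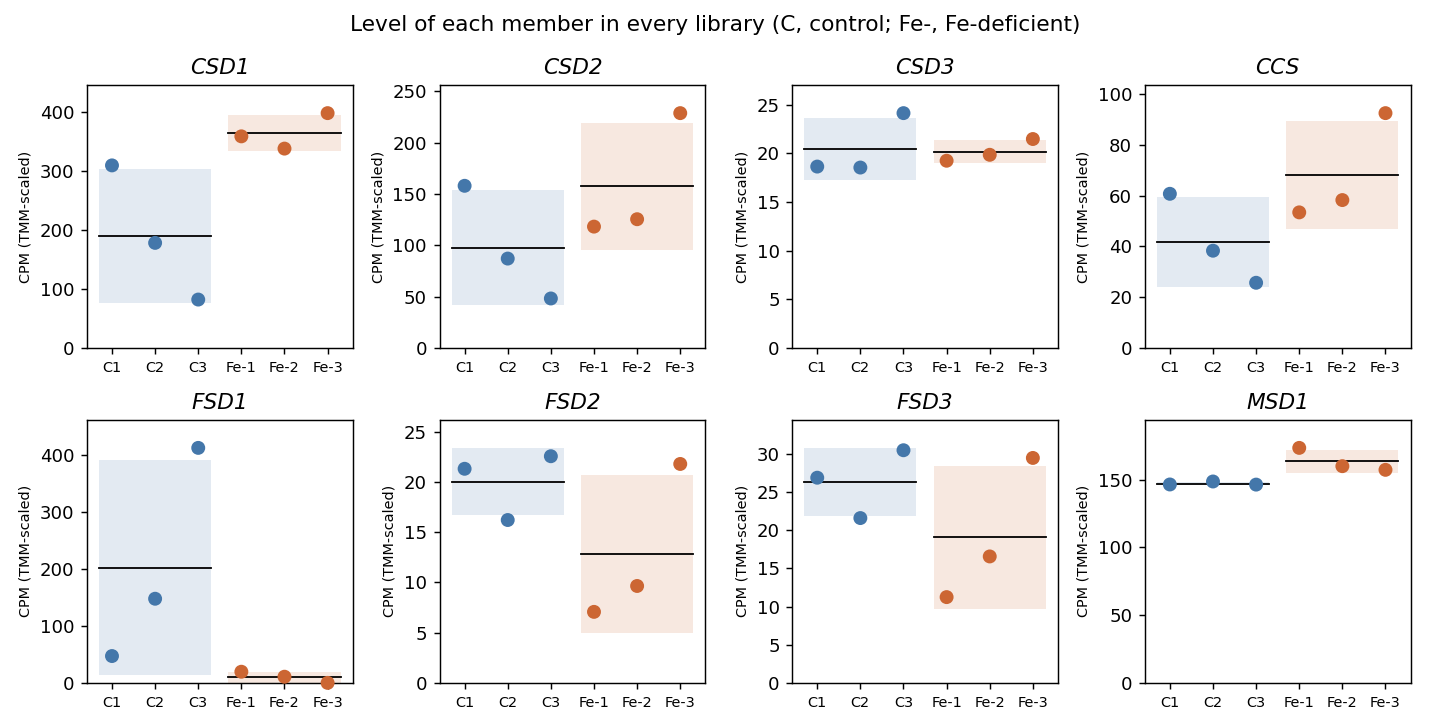
Level of the 8 members in CPM (TMM-scaled, linear axes from 0) in each of the 6 libraries. Points are libraries, lines group means and shaded bands 1 SD (n = 3). FSD1 spans 47.0 to 412 CPM within the controls and lies between 0 and 19.5 CPM in the Fe-deficient libraries.

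FSD1 (AT4G25100, TAIR10.1 chromosome 4, 12884300 to 12887011, minus strand, up to 8 exons) encodes the iron dismutase that copper shortage is known to raise. It had 47.0, 148 and 412 CPM in controls 1, 2 and 3, against 19.5, 10.8 and 0 CPM in Fe-deficient 1, 2 and 3. All 3 Fe-deficient libraries were below the lowest control, and the controls differed among themselves by 8.76-fold. The control mean was 202 ± 189 CPM and the Fe-deficient mean 10.1 ± 9.78 CPM (SD, n = 3). The edgeR adjusted p was 0.355. Without control 3 the log2 fold change was -3.28 in place of -4.34, and without Fe-deficient 3 it was -3.74 (edgeR adjusted p = 0.0932). Without Fe-deficient 3, 6783 of 21490 genes tested had an unadjusted p under 0.05 by edgeR. A count of 0 in Fe-deficient 3 allows up to 0.131 CPM, which is 3 counts in that library, so FSD1 was at least 359-fold lower there than in the lowest control. This bound covers counting error only.

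Iron-status genes, named with earlier results known, are given for comparison. The iron-deficiency regulator bHLH38 had 198 CPM in Fe-deficient 3 and at most 0.135 CPM in the other libraries. The plastid iron store FER1 had 31.9 CPM in Fe-deficient 3 against 409 ± 24.7 CPM in controls (SD, n = 3), and 409 and 577 CPM in Fe-deficient 1 and 2. FSD1 was still below the lowest control in the other two Fe-deficient libraries, where bHLH38 and FER1 were not set apart in that way.

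Among the 5 annotated transcripts of FSD1, AT4G25100.2 took 90.2% to 96.9% of the estimated counts of the locus in controls, and 98.8% and 100% in Fe-deficient 1 and 2. AT4G25100.3 had 25.5, 242 and 427 estimated counts in controls 1, 2 and 3 and 0 in each Fe-deficient library. AT4G25100.4 and AT4G25100.5 were at 0 in all libraries. AT4G25100.2 thus held most FSD1 counts in each library that had any. The 250 bases before the outermost annotated start of FSD1 hold 1 GTAC, the core letters that SPL7 is known to bind, at position -145 from that start. The same length before the TAIR10.1 start of AT4G25100.2, the transcript with most FSD1 counts, holds 0. The same GTAC lies at -254 from that start, just outside the window. As counted, AT4G25100.2 is 1107 bases long, against 1188 bases in TAIR10.1, so the distance from the start of the counted form is not known. The motif GTAC is its own reverse complement, and 34.3% of 27443 windows of this length before protein-coding genes hold at least 1. Among the other members, 2 adjoining copies lie before CSD1, at -11 and -7, and 7.67% of windows hold at least 2. CSD3 and CCS have 1 each, and CSD2, FSD2, FSD3 and MSD1 have none. The FSD1 window, chr4:12887012-12887261 on the minus strand of TAIR10.1, is shown 5′ to 3′ because this member differed most, with GTAC in capitals.
FSD1: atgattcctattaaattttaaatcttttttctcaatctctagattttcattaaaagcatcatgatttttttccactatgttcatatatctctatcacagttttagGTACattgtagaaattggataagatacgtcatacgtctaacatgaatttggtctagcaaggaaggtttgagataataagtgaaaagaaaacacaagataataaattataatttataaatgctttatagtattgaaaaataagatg

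CSD1 (AT1G08830, chromosome 1, 2827060 to 2829315, plus strand, 8 exons) encodes the cytosolic copper/zinc dismutase. It had 310, 179 and 82.4 CPM in controls 1, 2 and 3, against 359, 339 and 399 CPM in Fe-deficient 1, 2 and 3. The Fe-deficient libraries lay close together (1.18-fold from lowest to highest), and the controls were spread over 3.76-fold with the order of FSD1 turned round. Means were 190 ± 114 and 366 ± 30.6 CPM (SD, n = 3), and the edgeR adjusted p was 0.391. The separation from control 1 depends on scaling. On the deposited TPM scale control 1 stood at 480 TPM, above Fe-deficient 1 and 2 at 444 and 437 TPM. Without control 3 the log2 fold change was 0.58, and without control 1 it was 1.48. All counts of the locus were assigned to AT1G08830.1. CSD1 overlaps AT1G08840 on the other strand, and with no strand setting given, reads of the overlap cannot be told apart.

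CSD2 and CCS, the plastid copper/zinc dismutase and the chaperone, had nearly the same pattern. CSD2 (AT2G28190, chromosome 2, 12014412 to 12016569, plus strand) had 158, 87.1 and 48.3 CPM in controls 1, 2 and 3, against 118, 125 and 229 CPM in Fe-deficient 1, 2 and 3. CCS (AT1G12520, chromosome 1, 4267074 to 4268982, minus strand) had 60.7, 38.3 and 25.7 CPM in the controls and 53.4, 58.2 and 92.4 CPM in the Fe-deficient libraries. In both genes Fe-deficient 3 was highest and control 3 lowest, and control 1 was above Fe-deficient 1 and 2, so the groups overlapped. CSD2 had an estimated log2 difference of 0.69 (edgeR, SE 0.47, adjusted p = 0.508) and CCS one of 0.71 (SE 0.36, edgeR adjusted p = 0.407). Without Fe-deficient 3 these were 0.32 and 0.43, and with the libraries numbered 1 and 2 alone they were -0.01 and 0.17. Across the 6 libraries, CCS was the locus most like CSD2 among 19094 loci with a mean of at least 2 CPM (Pearson r = 0.991 on log2 CPM, a description). The next most like CSD2 were CNI1 (r = 0.987) and ATAF1 (r = 0.981). After CSD2, those most like CCS were AT3G62330 (r = 0.988) and SEH1H (r = 0.975), and those most like CSD1 were AT3G58030 (r = 0.977), UCC2 (r = 0.950) and AT3G62330 (r = 0.945). FSD1 was most like AT3G26490 (r = 0.982), CLC-E (r = 0.981) and AT1G03270 (r = 0.974). All these values share the same 6 libraries and their scaling. The correlation takes no account of the size of a difference. AT3G62330 ran only from 39.1 to 44.45 CPM, SEH1H from 17.9 to 20.65, AT3G58030 from 51.5 to 61.55 and CLC-E from 10.2 to 20.55. UCC2 (7.10 to 21.7 CPM) and CNI1 (5.56 to 17.1 CPM) varied more. The r values of FSD1 include its 0 in Fe-deficient 3, taken as log2(CPM + 0.5).

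The 3 annotated CCS transcripts were not used in equal parts. AT1G12520.1 took 91.3%, 80.5% and 73.2% of the CCS counts in controls 1, 2 and 3 and 89.7% to 91.4% in the Fe-deficient libraries. AT1G12520.2 took 19.0% and 21.3% in controls 2 and 3 and at most 9.42% elsewhere. Its estimated counts were between 64.8 and 182 in all libraries, while those of AT1G12520.1 ran from 450 to 1915. The 2 libraries with the lowest CCS level were those in which the minor transcript held the larger share. Salmon divides reads between overlapping transcripts, so these shares carry an error that the files do not give.

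FSD1 and the miR398 targets are known as part of the copper economy response, and microRNA precursor loci of that response were read beside them. The precursor locus MIR398C (AT5G14565) had 4.37, 24.4 and 54.4 CPM in controls 1, 2 and 3, against 5.99, 4.65 and 3.41 CPM in Fe-deficient 1, 2 and 3. MIR408, the precursor of another microRNA of the copper response, had 0.855, 8.71 and 19.9 CPM in the controls and 1.75, 0.681 and 0.131 CPM in the Fe-deficient libraries. In both loci controls 2 and 3 were above every Fe-deficient library and control 1 lay among them. The log2 fold changes were -2.57 (SE 0.84, edgeR adjusted p = 0.339) for MIR398C and -3.56 (SE 1.27, edgeR adjusted p = 0.352) for MIR408. DESeq2 placed both past its threshold, with adjusted p of 0.0299 and 0.0430. Without control 3 the values were -1.62 for MIR398C and -2.51 for MIR408, and over the 16 alternatives the adjusted p of MIR398C ranged from 0.0299 to 0.799. Mature miRNAs were not measured here. The MIR398C transcript counted in the files is 1941 bases long, against a precursor of 115 bases in TAIR10.1, and that of MIR408 is 1247 against 218 bases. MIR408 overlaps AT2G47020 on the other strand. MIR398A and MIR398B, at 105 and 116 bases, were listed at 0 in all libraries.

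**Figure D2:**
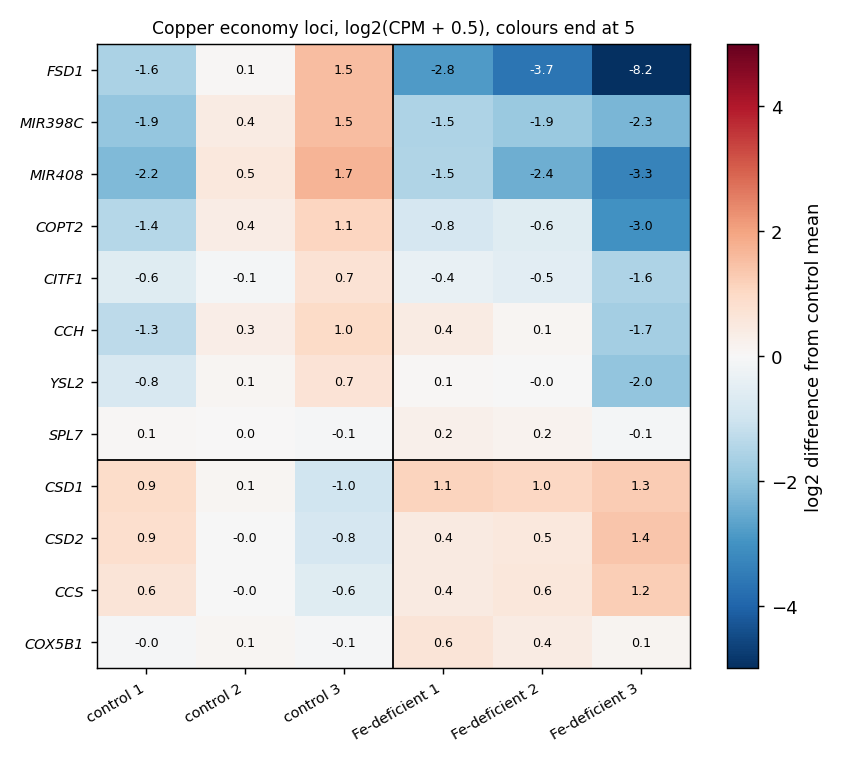
Difference of log2(CPM + 0.5) from the mean of the 3 controls for 12 loci of the copper economy and the family, one column per library. Loci above the horizontal line include FSD1, MIR398C and MIR408, highest in control 3 and lowest in Fe-deficient 3, and those below it are known miR398 targets. Colours end at 5, which FSD1 in Fe-deficient 3 passes.

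Of 24 tested loci on the copper economy list, 11 had a positive and 13 a negative log2 fold change (median -0.03), and 0 passed the threshold by edgeR. At an unadjusted p under 0.05 by edgeR, 3 of the 24 were higher and 1 lower, where 7.34% and 6.09% of genes tested were. The 3 were LAC4, COX5B1 and COPT1, and the 1 was PETE1. With the lowest unadjusted p, the plastocyanin PETE1 had an estimated log2 difference of -0.67 (edgeR, SE 0.21, adjusted p = 0.336) and the laccase LAC4 one of 1.48 (SE 0.50, edgeR adjusted p = 0.339). The copper importer COPT1 had 26.4, 62.8 and 63.1 CPM in the controls and 114, 102 and 68.1 CPM in the Fe-deficient libraries (log2 estimate 0.90, SE 0.37, edgeR adjusted p = 0.372). All Fe-deficient libraries were thus above the controls in CPM, as in 2 of the 24 loci and 10.0% of genes tested. Another importer, COPT2, had 2.36, 9.36 and 15.7 CPM in controls 1, 2 and 3 and 3.84, 4.595 and 0.438 CPM in Fe-deficient 1, 2 and 3. The transcription factor CITF1 had 1.46, 2.34 and 4.43 CPM in the controls and 1.82, 1.59 and 0.525 CPM in the Fe-deficient libraries. The copper chaperone CCH had 70.7, 220 and 338 CPM in the controls and 229, 187 and 53.2 CPM in the Fe-deficient libraries. COPT1, COPT2, CITF1 and CCH, and YSL2 and SPL7 in the heat map, were named after their values were seen. COPT2, CITF1, CCH and YSL2 were highest in control 3 and lowest in Fe-deficient 3, and the other 20 of the 24 loci did not show that order. Over all genes tested 0.823% show it, and the order was picked after these values were seen. SPL7 had 78.4 to 85.9 CPM in controls and 75.9 to 97.9 CPM in Fe-deficient anthers, and the groups overlapped. COX5B1, the miR398 target outside the family, had 96.1, 106 and 94.8 CPM in controls 1, 2 and 3 and 155, 131 and 109 CPM in Fe-deficient 1, 2 and 3. The estimated difference was 0.41 on the log2 scale (edgeR, SE 0.16, adjusted p = 0.366), and it was named after its values were seen. The library order with control 1 lowest and control 3 highest among the controls was shown by 45.8% of the 24 loci and by 20.8% of all genes tested. The same order was shown by 50.0% of the peroxide genes described below and by 61.9% of the late pollen markers.

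The make-up of the dismutase pool was compared per transcript length, as shares of the summed TPM of the 7 dismutase loci. FSD1 held 5.16%, 20.1% and 48.5% of the pool in controls 1, 2 and 3, against 2.15%, 1.24% and 0% in Fe-deficient 1, 2 and 3. CSD1, CSD2 and CSD3 together held 72.0%, 52.8% and 26.4% in the controls and 74.8%, 75.6% and 79.6% in the Fe-deficient libraries. Copper/zinc dismutases made up most of the pool in every library except control 3, where iron dismutases did, at 54.7%. The mean FSD1 share was 24.6 ± 22.0% (controls) against 1.13 ± 1.08% (Fe-deficient), and the copper/zinc share 50.4 ± 22.9% against 76.7 ± 2.55% (SD, n = 3 each). Both differences had p = 0.1 in an exact two-sided permutation test, the smallest p that 3 against 3 libraries allow. The 2 shares belong to the same pool, so a lower FSD1 share raises the copper/zinc share and the results are not independent. In TPM itself, CSD1, CSD2 and CSD3 were each higher in control 1 than in Fe-deficient 1 and 2. Without control 3 the FSD1 difference was -11.5 percentage points in place of -23.5, and the copper/zinc difference was 14.3 in place of 26.3. The summed TPM of the pool was 822 to 1026 in controls and 813 to 1231 in Fe-deficient anthers. CSD1 held 9.06, 1.66 and 0.275 times the TPM of FSD1 in controls 1, 2 and 3, against 25.4 and 43.3 times in Fe-deficient 1 and 2.

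**Figure D3:**
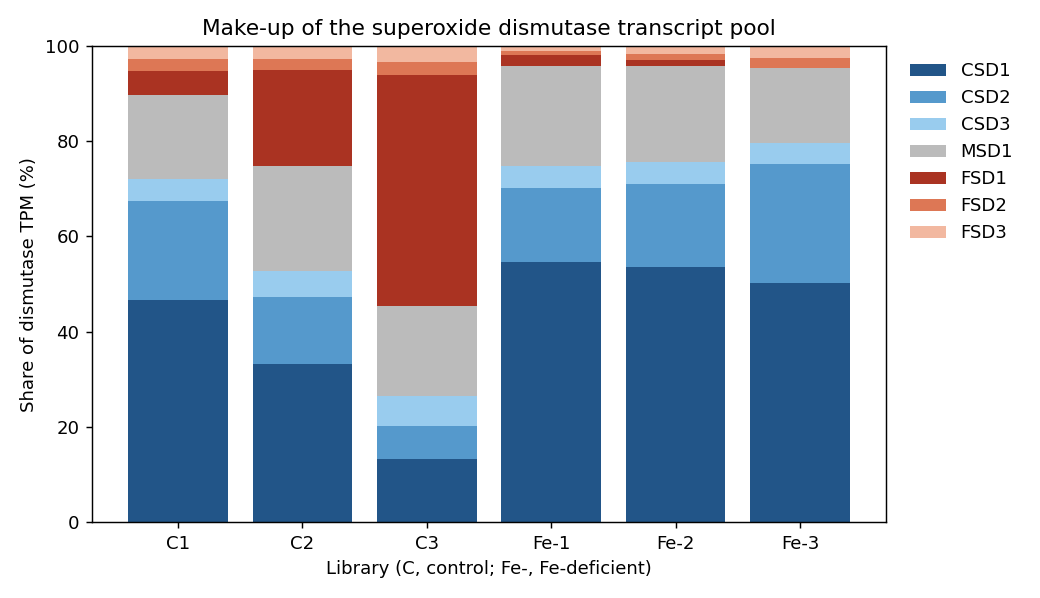
Share of each of the 7 dismutase loci in their summed TPM (%), one stacked bar per library. Blue shades are copper/zinc, grey manganese and red shades iron dismutases. FSD1 takes 48.5% of the pool in control 3 and 0% in Fe-deficient 3.

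FSD2 and FSD3, the iron dismutases of plastid nucleoids, differed from FSD1 in their pattern. They are known as parts of the plastid-encoded RNA polymerase complex. FSD2 (AT5G51100, chromosome 5, 20773235 to 20775739, minus strand) had 21.3, 16.2 and 22.6 CPM in controls 1, 2 and 3, against 7.07, 9.64 and 21.8 CPM in Fe-deficient 1, 2 and 3. FSD3 (AT5G23310, chromosome 5, 7850444 to 7852534, plus strand) had 26.9, 21.6 and 30.5 CPM in the controls and 11.2, 16.6 and 29.5 CPM in the Fe-deficient libraries. Both genes were below every control in Fe-deficient 1 and 2 and within the control range in Fe-deficient 3, the library with no FSD1 count. The estimate was -0.64 (SE 0.43, edgeR adjusted p = 0.5005) for FSD2 and -0.46 (SE 0.36, edgeR adjusted p = 0.552) for FSD3. Without Fe-deficient 3 the values were -1.26 and -0.92, with edgeR adjusted p of 0.0859 and 0.0900. In that fit 6783 of 21490 genes tested had an unadjusted p under 0.05 by edgeR. The lowest edgeR adjusted p over all genes there was also 0.0859, so such values were not particular to these 2 genes. Without Fe-deficient 1 they were -0.35 and -0.19, with edgeR adjusted p of 0.811 and 0.863.

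Other subunits of the plastid polymerase complex stood beside FSD2 and FSD3. All 11 tested loci of that list had a negative log2 fold change (median -0.36), and 0 passed the threshold by edgeR, with 0 at an unadjusted p under 0.05. Their median log2 difference from the control mean came to -1.06, -0.64 and 0.31 in Fe-deficient 1, 2 and 3, and to -0.11, -0.17 and 0.28 in controls 1, 2 and 3. The subunits with the lowest unadjusted p were PAP12 (log2 fold change -0.40, SE 0.28, edgeR adjusted p = 0.514) and PAP1 (-0.37, SE 0.28, edgeR adjusted p = 0.538). The median difference of the green tissue markers was -0.57, -0.61 and 0.14 in Fe-deficient 1, 2 and 3. Their part in the FSD2 and FSD3 levels was not tested.

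**Figure D4:**
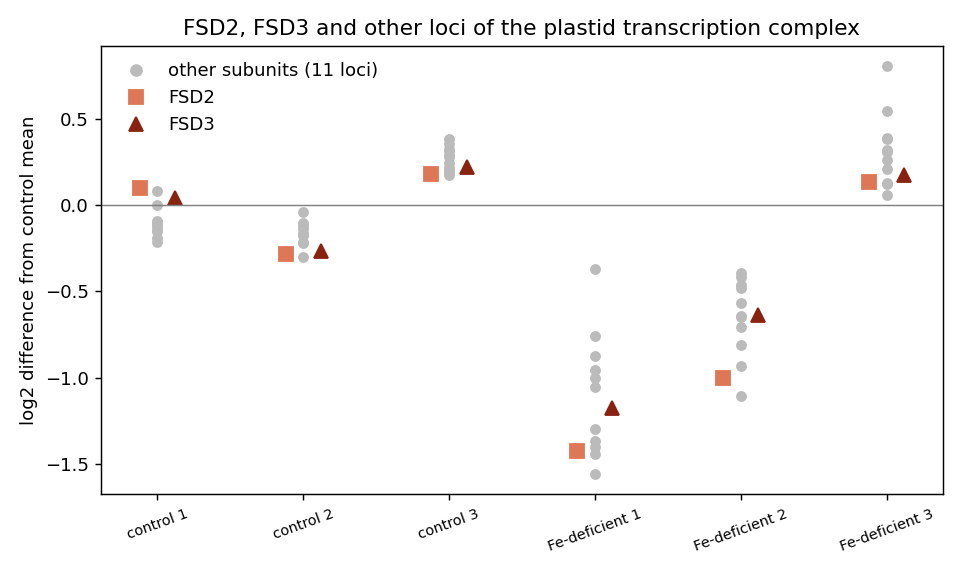
Difference of log2(CPM + 0.5) from the control mean for FSD2 (squares), FSD3 (triangles) and 11 other loci of the plastid transcription complex (grey) in each library. The grey loci and both dismutases lie below 0 in Fe-deficient 1 and 2 and above 0 in Fe-deficient 3.

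MSD1 and CSD3 varied least. MSD1 (AT3G10920, chromosome 3, 3417940 to 3419892, plus strand), the mitochondrial manganese enzyme, had 146, 149 and 146 CPM in controls 1, 2 and 3, against 173, 160 and 157 CPM in Fe-deficient 1, 2 and 3. The direction depends on scaling, with an estimated log2 difference of 0.15 (edgeR, SE 0.11, adjusted p = 0.538) on counts and of -0.07 by limma on log2(TPM + 1). CSD3 (AT5G18100, chromosome 5, 5987187 to 5988885, plus strand), the peroxisomal enzyme, had 18.6, 18.6 and 24.1 CPM in the controls and 19.2, 19.9 and 21.5 CPM in the Fe-deficient libraries. The groups overlapped, with an estimated log2 difference of -0.02 (edgeR, SE 0.16, adjusted p = 0.963) that turned positive without control 3. CSD3 overlaps 2 annotated genes on the other strand.

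**Figure D5:**
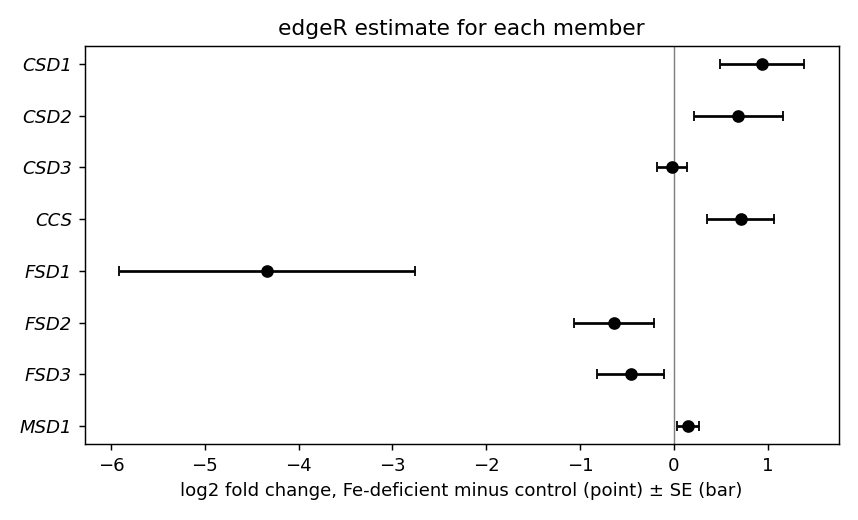
edgeR log2 fold change (Fe-deficient minus control) of the 8 members as points, with bars of 1 SE. FSD1 lies at -4.34 and the other 7 members between -0.64 and 0.94.

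Proteins that act with the dismutases or on their product were read from lists. CPN20, a chaperonin known to supply iron to FSD1, had 312, 208 and 226 CPM in controls 1, 2 and 3 and 120, 138 and 225 CPM in Fe-deficient 1, 2 and 3 (log2 fold change -0.62, SE 0.29, edgeR adjusted p = 0.383). MTM1, a mitochondrial carrier linked to MSD1 activity, had an estimated log2 difference of 0.27 (edgeR, SE 0.13, adjusted p = 0.389). MSD2, a second manganese dismutase, had too few counts to be tested, with 0 CPM in all controls and 2.96, 0.227 and 3.54 CPM in Fe-deficient 1, 2 and 3. Of 18 tested genes of peroxide removal, 11 had a positive and 7 a negative log2 fold change (median 0.06), and 0 passed the threshold by edgeR, with 2 higher at an unadjusted p under 0.05, where 7.34% of genes tested were. These 2 were glutathione reductase GR1 (log2 fold change 0.68, SE 0.24, edgeR adjusted p = 0.348) and monodehydroascorbate reductase MDAR4 (0.60, SE 0.21, edgeR adjusted p = 0.349). Both had higher CPM in every Fe-deficient library than in any control, as 10.0% of genes tested did. That order was not checked on TPM. By limma on log2(TPM + 1) the estimates were smaller, at 0.43 for GR1 and 0.36 for MDAR4.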

How the data were processed

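The submitters' processing notes list Trimmomatic 0.35, Salmon 0.12.0 and TAIR10. Each library has one Salmon table, with estimated counts, TPM, and the other measures length and effective length per transcript, per the file headers. The deposited TPM is scaled for length and library size. No source used here gives the strand setting.

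Estimated counts (75.3% whole) were summed per locus, rounded, filtered (filterByExpr) and tested with edgeR 4.0.16's quasi-likelihood test (TMM factors, group alone, Benjamini-Hochberg over all genes) in R 4.3.3. DESeq2 1.42.0, limma 3.58.1, other scalings, filters, a replicate block and left-out libraries were alternatives. The procedure was tested on simulated data. Chi-square per degree of freedom within groups was 26.5 to 127, so no libraries were merged. Precision is limited by 3 libraries per group. The floor of 3 counts served only for the FSD1 fold bound in Fe-deficient 3, and 0 counts were kept as 0 in the tests. Coordinates and sequences are TAIR10.1 (RefSeq); the files hold no coordinates.

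The members and lists were chosen with earlier results of these data known. Named genes are the members, loci past the threshold or the 2 lowest unadjusted p per list, and the 3 loci most like CSD1, CSD2, CCS and FSD1. Outside that rule, bHLH38, BTS, FER1, MSD2 and the further copper loci, COX5B1 among them, were named with their values known. Python 3.11.15, scipy 1.17.1 and matplotlib 3.10.9 were used.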

Additional observations from a re-analysis of the deposited data

How the results depend on the processing

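The count of members called was 0 under every alternative, and the 2 differences in pool share kept their direction under every alternative. Over all genes, DESeq2 called 730 in place of 0, and the libraries numbered 1 and 2 alone gave 92. Leaving out 1 library gave 0 calls over all genes and 0 among the members each time, an FSD1 share difference of -33.2 to -11.5 percentage points and a copper/zinc share difference of 14.3 to 37.0. With the replicate block the calls stayed at 0 (lowest edgeR adjusted p of a member 0.404) and the share differences at -23.5 and 26.3. Deviations from the group means correlated at -0.178, 0.456 and -0.102 between same-numbered libraries, and at -0.357 to 0.339 between differently numbered ones. With 3 libraries per group these values cannot settle whether the numbers mark pairs. Of 128 member values 6 changed sign. MSD1 was -0.0659 with TPM + 1 and -0.0662 with TPM + 0.1. Leaving out 1 library moved CSD3 from -0.0826 (without control 1) to 0.12 (without control 3), with 0.02 without Fe-deficient 1. With the libraries numbered 1 and 2 alone CSD3 was 0.0732 and CSD2 -0.0064. The cause was not tested. Across alternatives FSD1 ranged from -6.85 to -2.69 and CSD1 from 0.52 to 1.48. MIR408 gave no value under the filter of 2 CPM in 3 libraries.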
